A study of Mus musculus with 11 samples.

Results

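Leukocytes leave the blood by rolling on, sticking to and then crossing the vessel wall, and each step uses adhesion molecules on the endothelial surface. The 8 genes described here encode such molecules of mouse retinal endothelium: the selectins Sele and Selp, the immunoglobulin family ligands Icam1, Icam2 and Vcam1, the junctional proteins Pecam1 and Cd99l2, and the sialomucin Podxl. They were chosen by name and matched by GENCODE symbol to the Ensembl identifiers of the count files, and all 8 were found among the 55359 genes counted. All 8 also passed the filter on low counts that left 17050 genes for testing.

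Vascular endothelial cells were sorted as CD31+/CD45- cells at P17 from the retinas of C57BL/6 mice in the model of oxygen-induced retinopathy (OIR), in which oxygen-rich air stops vessel growth in pups and the return to room air makes vessels regrow abnormally. At P12 the mice had received an intravitreal injection of 0.5 µL of either oncostatin M (OSM) at 100 ng/µL, an IL-6 family cytokine, or PBS. There were 5 OSM-treated and 6 PBS-treated mice from 3 litters, with 2 of each in litters 1 and 2 and with 1 OSM-treated and 2 PBS-treated mice in litter 3, and both retinas of a mouse were pooled. Each litter was 1 OIR run, so litter and run cannot be told apart. The methods describe PBS in contralateral eyes, and it is not stated whether both eyes of a sequenced mouse had the same injection. All mice carried the oxygen exposure, and no group without OIR was analysed here.

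In resting vessels ICAM-2 and PECAM-1 are present constitutively, whereas E-selectin, VCAM-1 and much of ICAM-1 appear after inflammatory cytokines act through NF-kB. The selectins capture leukocytes, ICAM-1 and ICAM-2 bind beta2 integrins and VCAM-1 binds the integrin VLA-4, and PECAM-1 and CD99L2 act when leukocytes pass between endothelial cells. Podocalyxin, the product of Podxl, is an anionic sialomucin on the luminal side of endothelium and can carry selectin ligands. IL-6 family cytokines signal through gp130 and STAT3, and a common STAT binding motif is the GAS element.

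The sequences just upstream of Icam1, Vcam1, Sele and Selp are shown because these are the members known to respond to cytokines or stored for rapid release. Each is the 250 bases before the start of the canonical transcript in GRCm39, written 5′ to 3′ on the gene's strand. They lie at chr9:20926422-20926671 on the plus strand, chr3:115923348-115923597 on the minus strand, chr1:163875523-163875772 on the plus strand and chr1:163942583-163942832 on the plus strand. Capitals mark an exact match to the NF-kB consensus GGGRNNYYCC (R is A or G, Y is C or T) or to the GAS element TTCNNNGAA. Each was searched on both strands. Sites that depart from these letters were not searched for and are not marked.
Icam1: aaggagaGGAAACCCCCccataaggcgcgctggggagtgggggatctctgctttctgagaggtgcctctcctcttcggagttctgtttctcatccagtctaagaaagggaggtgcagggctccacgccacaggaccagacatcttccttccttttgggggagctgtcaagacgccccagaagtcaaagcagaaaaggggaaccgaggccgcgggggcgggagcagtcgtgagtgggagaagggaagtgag
Vcam1: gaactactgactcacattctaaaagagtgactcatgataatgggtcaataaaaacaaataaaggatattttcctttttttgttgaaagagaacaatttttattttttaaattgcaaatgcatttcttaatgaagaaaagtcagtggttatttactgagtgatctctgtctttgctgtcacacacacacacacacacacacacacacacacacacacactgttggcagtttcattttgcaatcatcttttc
Sele: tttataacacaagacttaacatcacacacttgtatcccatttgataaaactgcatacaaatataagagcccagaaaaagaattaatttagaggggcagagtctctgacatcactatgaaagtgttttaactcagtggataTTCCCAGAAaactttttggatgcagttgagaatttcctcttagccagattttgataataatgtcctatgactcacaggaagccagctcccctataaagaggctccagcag
Selp: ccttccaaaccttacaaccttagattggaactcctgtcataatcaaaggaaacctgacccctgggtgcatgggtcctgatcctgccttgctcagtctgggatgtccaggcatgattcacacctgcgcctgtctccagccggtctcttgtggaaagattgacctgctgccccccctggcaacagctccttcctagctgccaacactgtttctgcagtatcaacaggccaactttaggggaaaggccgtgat
The Icam1 window held 1 match to the NF-kB consensus, on the minus strand at -243 to -234 from the start, and 7.62% of the 21770 promoters of this length held one. Sele held 1 match to the GAS element, at -110 to -102, a motif found in 7.7% of the 21770 promoters. Neither motif was found in the windows of the other 6 members. The matched letters do not overlap each other and are a description of sequence only.

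As for the libraries, totals were 26697990 to 56033479 reads on genes per mouse. Each of 8 endothelial markers had at least 1028 reads in every mouse, and their summed level was 365786 to 446557 normalized counts (TMM-scaled to the mean library) in OSM-treated and 344340 to 446702 in PBS-treated mice. Ptprc, which encodes CD45, had at most 22 reads and was read in 5 mice. The summed level of 12 leukocyte markers was 1211 to 2595 normalized counts with OSM and 1318 to 5251 with PBS. On average this sum was made up mostly of Laptm5, which had a mean of 1586 normalized counts. In PBS mouse 4, which had the highest sum, Lyz2 had 2140 reads. Of the erythroid markers tested, 5 of 5 were higher with OSM at an unadjusted p under 0.05 (edgeR). Over all tested genes 4.96% had such a p in either direction, and each of the 5 markers had an adjusted p of 0.955 (edgeR). The erythroid markers summed to 12220 to 38458 normalized counts with OSM against 3974 to 20303 with PBS. All 8 mural markers were lower with OSM, 0 of them at an unadjusted p under 0.05, with sums of 11379 to 25627 against 8869 to 53068. Rod markers summed to 144394 normalized counts in OSM mouse 5 and to 5331 to 48229 in the other mice. Their part in the results below was not tested. In sorted bulk cells, fewer cells of a type and less RNA per cell cannot be told apart.

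The adhesion genes spanned a wide range of levels. Levels are given as RPKM (reads scaled to gene length and library size) from TMM-scaled counts and the union of exons, so that genes can be compared. Pecam1 was highest at 133 ± 26.5 RPKM, followed by Podxl at 82.5 ± 21.5 and Icam2 at 80.3 ± 12.9 (SD, n = 11 mice). Pecam1 encodes CD31, the protein used to sort the cells, so its presence is set by the gate. Icam1 reached 48.4 ± 9.77 RPKM, Vcam1 7.13 ± 3.39 and Cd99l2 5.51 ± 1.56 (SD, n = 11). The selectins were lowest, Sele with 0.88 ± 0.966 RPKM and Selp with 0.609 ± 1.12 (SD, n = 11). Among the 16962 tested genes with a length in the annotation, 98.8% lay below Pecam1, 95.6% below Icam1, 73.8% below Vcam1 and 32.5% below Selp.

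**Figure D1:**
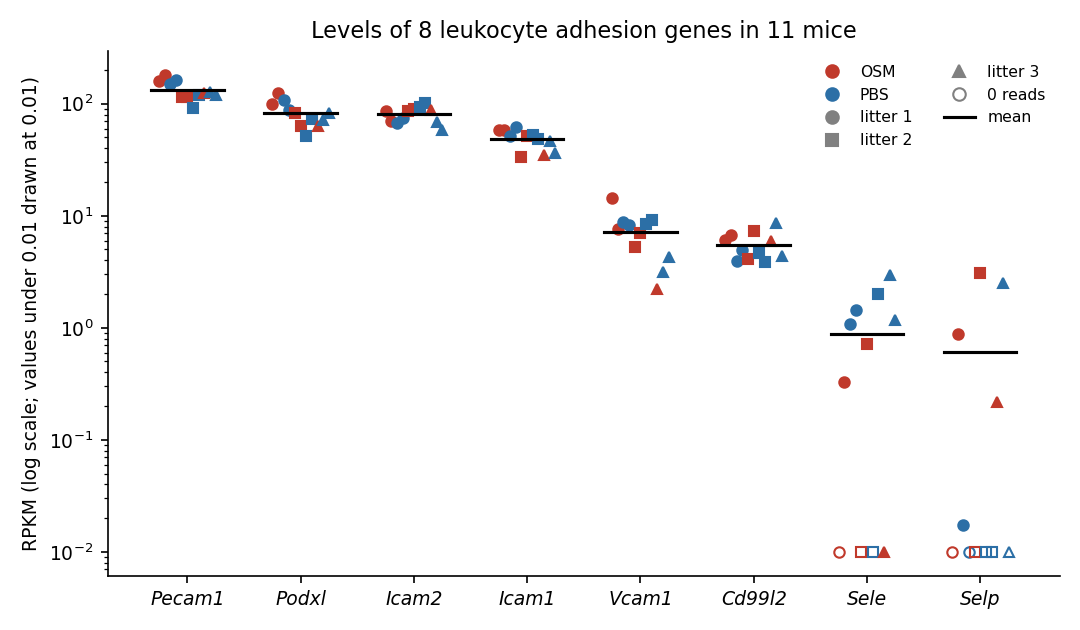
Level of each gene in RPKM on a log scale, 1 point per mouse, colored by treatment and shaped by litter, with the mean as a line and open symbols for 0 reads. Pecam1, Podxl, Icam2 and Icam1 form the upper group, with means of 48.4 to 133 RPKM, and only the selectins have mice at 0 reads.

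Neighbors in this order were compared within mice by an exact two-sided sign-flip permutation test over 11 mice, with adjustment over 7 pairs. Pecam1 lay above Podxl in 11 of 11 mice (exact p = 0.000977, the smallest this test can give, adjusted p = 0.00171). The same held for Icam2 over Icam1, Icam1 over Vcam1 and Cd99l2 over Sele. Podxl and Icam2 did not differ beyond their spread, with Podxl higher in 6 of 11 mice (exact permutation, adjusted p = 0.94). Vcam1 was above Cd99l2 in 7 of 11 mice (exact permutation, adjusted p = 0.476) and Sele above Selp in 5 of 11 (exact permutation, adjusted p = 0.219). Both selectins had 0 reads in mice 1, 5 and 7, where neither was higher. The length used matters here, and it keeps exon bases that overlap other genes, where reads may have been left out of the counts. With the longest transcript in place of all exons, Pecam1 had 273, Icam1 76.6, Vcam1 15.7 and Cd99l2 8.18 RPKM, Icam2 had a higher mean than Podxl but was above it in 6 of 11 mice (exact permutation, adjusted p = 0.417), Podxl was above Icam1 in 7 of 11 (exact permutation, adjusted p = 0.376) and Vcam1 lay above Cd99l2 (exact permutation, adjusted p = 0.0393).

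Whether OSM altered these genes was tested with edgeR in a quasi-likelihood fit that held litter as a term. None of the 8 was called at an adjusted p under 0.05, as was true of 0% of the 17050 genes tested, and the lowest adjusted p of a member was 0.9702. At an unadjusted p under 0.05 the count was 0 of 8, against 4.96% of all tested genes. With 1 mouse left out in turn, this second count was 1 without OSM mouse 1 (against 4.21% of tested genes) or OSM mouse 9 (4.2%), 2 without PBS mouse 10 (4.75%) and 0 otherwise. It was 2 in edgeR without the filter on low counts, against 5.81% of genes. DESeq2 also called 0 of 8 members, against 0.763% of the genes it adjusted, and gave 1 of them an unadjusted p under 0.05, against 6.07% of genes. With litter in the fit, the estimated difference was positive for 5 members and negative for 3, and the plain group means were higher with OSM for 6 members and lower for 2, Vcam1 being the gene that differed between these counts. The fitted values had a median log2 fold change of 0.1 for the members and -0.01 for all tested genes. No member had OSM-treated and PBS-treated mice that did not overlap, which 0.405% of tested genes had. The sign was the same in all 3 litters for Sele, Selp and Pecam1, 3 of 8 members against 23% of tested genes. It was taken from means of log2 CPM, in which a mouse with 0 reads has a floor value. For Selp in litter 3 the sign rests on that floor, as given below.

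**Figure D2:**
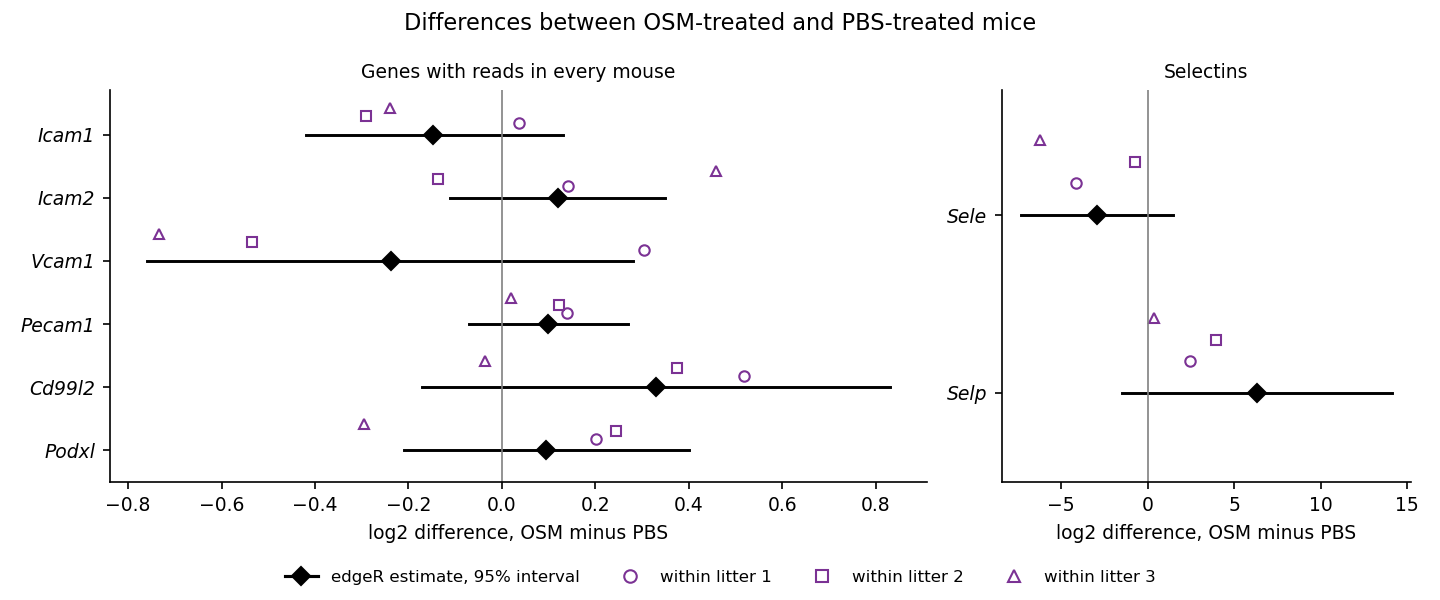
Log2 difference between OSM-treated and PBS-treated mice for each gene, with the edgeR estimate and its 95% interval in black and the difference within each litter as open symbols. Every interval spans 0, and the selectins have a wider scale, with intervals from -7.34 to 1.45 for Sele and from -1.47 to 14.12 for Selp.

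The selectins had the fewest reads. Sele encodes E-selectin (ENSMUSG00000026582, chromosome 1 of GRCm39, 163867401 to 163886055), which endothelium makes after activation and which slows rolling leukocytes. It had 0, 43, 0, 79 and 2 reads in OSM mice 1, 2, 5, 6 and 9. In PBS mice 3, 4, 7, 8, 10 and 11 it had 110, 175, 0, 268, 380 and 143 reads. Thus 5 of 6 PBS-treated mice lay above every OSM-treated mouse, and PBS mouse 7, without a read, broke the separation. The mean was 27.5 ± 41.4 normalized counts with OSM (SD, n = 5) and 188 ± 128 with PBS (SD, n = 6). This was a log2 fold change of -2.94 with an SE of 1.99 (edgeR, adjusted p = 1), and the differences within litters 1, 2 and 3 were -4.13, -0.73 and -6.25 in log2 CPM. Over the fits without 1 mouse the estimate lay between -5.39 without OSM mouse 6 and -2.21 without OSM mouse 9. DESeq2 gave -2.97 with an unadjusted p of 0.0757 and an adjusted p of 0.719. A count of 0 allows up to 3 reads, which is 0.0851 to 0.103 CPM in the 3 mice concerned, counting error only.

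Selp encodes P-selectin (ENSMUSG00000026580, chromosome 1, 163942833 to 163977595), which endothelium and platelets store in granules, and lies 56777 bases from Sele. It had 0, 135, 0, 388 and 54 reads in OSM mice 1, 2, 5, 6 and 9. In PBS mice 3, 4, 7, 8, 10 and 11 it had 2, 0, 0, 0, 373 and 0 reads. Reads came mainly from 4 mice, 3 with OSM and 1 with PBS, and both groups held mice without any. The mean was 126 ± 196 normalized counts with OSM (SD, n = 5) and 63.1 ± 153 with PBS (SD, n = 6). The log2 fold change of 6.33 had an SE of 3.53 (edgeR, adjusted p = 0.9702) and is no bound, since 4 of 6 PBS-treated mice had 0 reads. Without the litter term it was 0.99 (edgeR, adjusted p = 0.9998). With the litter term it fell to 3.06 without OSM mouse 6 and rose to 7.96 without PBS mouse 3. Differences within litters 1, 2 and 3 were 2.44, 3.93 and 0.34 in log2 CPM, where a mouse with 0 reads has the floor value of -4.09. In litter 3 OSM mouse 9 had 32.89 normalized counts, and PBS mice 10 and 11 had 376.2 and 0. The positive difference of litter 3 thus rests on the floor value of PBS mouse 11. DESeq2 gave 6.96 with an unadjusted p of 0.0085 and an adjusted p of 0.3. Among its exon bases, 26% overlap antisense genes in the annotation used here. Counting ignored strand and left out reads that fit several genes, so reads from these bases may be missing from the Selp count. The summed level of 10 platelet markers was 385.6 to 520.2 normalized counts with OSM and 311.8 to 732.6 with PBS. In the 4 mice with most Selp reads it was 440.8, 508.1 and 520.2 in OSM mice 2, 6 and 9 and 374.2 in PBS mouse 10. This sum was made up mostly of Itga2b, which had a mean of 263 normalized counts. Single markers went both ways. Pf4 had most reads in PBS mouse 10, and Gp6 was read only in OSM mouse 2. Ppbp was read only in PBS mouse 4 and Clec1b had most reads in PBS mouse 7, both without Selp reads. The part of platelets in the Selp reads was not tested.

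**Figure D3:**
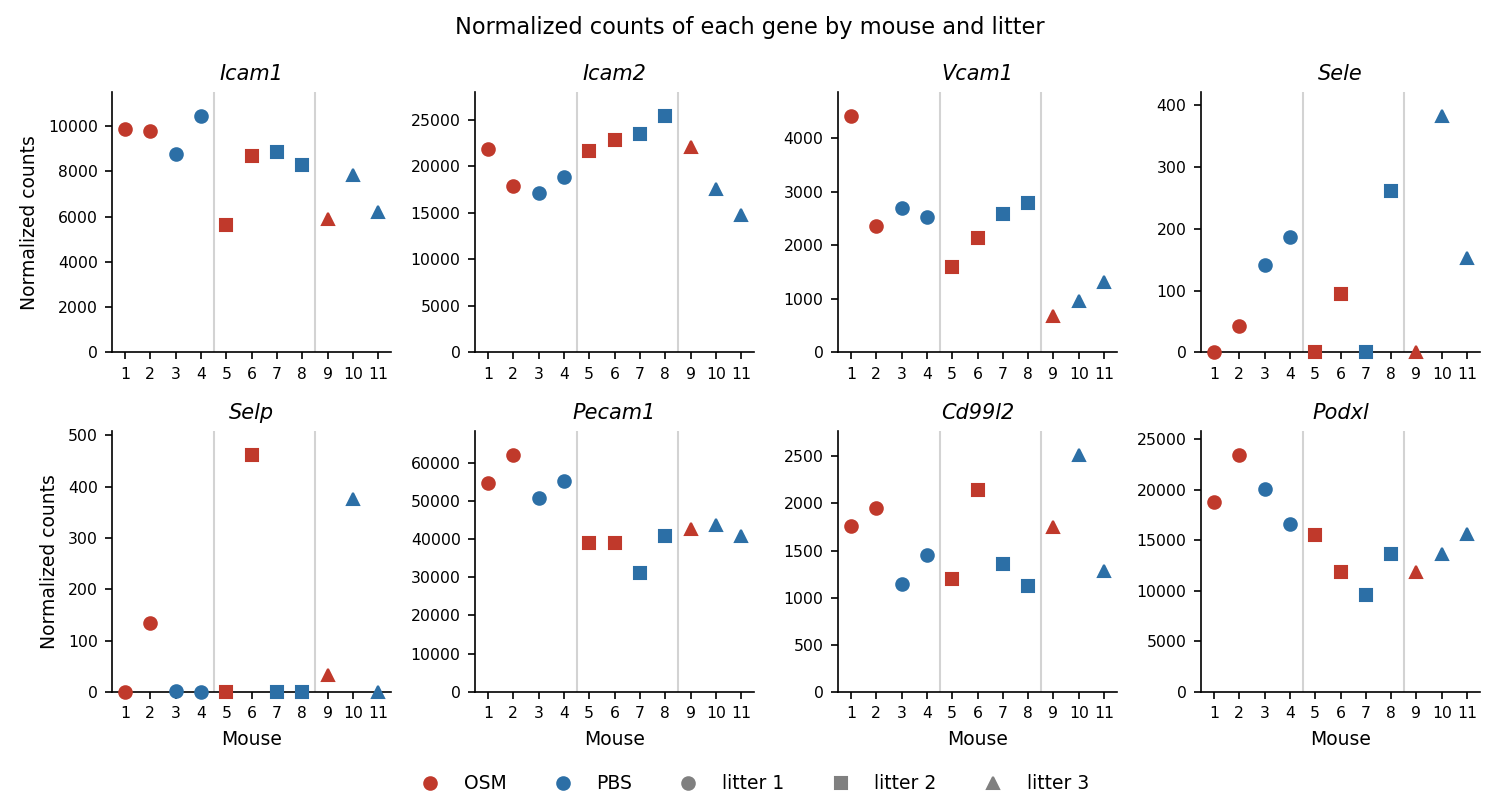
Normalized counts of each gene by mouse number, colored by treatment and shaped by litter, with lines between litters and every axis starting at 0. Vcam1 in litter 3 stays at or below 1315 while the other mice reach at least 1600, and Pecam1 and Podxl are highest in litter 1.

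Icam1, Icam2 and Vcam1 encode the ligands on which leukocytes arrest. Icam1 (ENSMUSG00000037405, chromosome 9, 20926672 to 20940113) had 9876, 9783, 5651, 8660 and 5893 normalized counts in OSM mice 1, 2, 5, 6 and 9. In the PBS-treated mice it had between 6184 and 10456, with a median of 8529. The groups overlapped, and the 2 lowest values were those of OSM mice 5 and 9. The log2 fold change was -0.15 ± 0.12 (SE, edgeR, adjusted p = 1), with a 95% interval of -0.42 to 0.13. It was -0.05 without OSM mouse 5, -0.22 without OSM mouse 6 and -0.07 without the litter term, and within litters 1, 2 and 3 it was 0.04, -0.29 and -0.24. Icam2 (ENSMUSG00000001029, chromosome 11, 106263312 to 106278943) had 21854, 17904, 21638, 22865 and 22106 normalized counts in OSM mice 1, 2, 5, 6 and 9, against 14786 to 25434 with a median of 18154 in PBS-treated mice. All OSM values lay within the PBS range. For Icam2 the log2 fold change was 0.12 ± 0.10 (SE, edgeR, adjusted p = 1, 95% interval -0.11 to 0.35), and it was 0.0011 without OSM mouse 9, the only OSM-treated mouse of litter 3. Of the Icam2 exon bases, 24.5% overlap the antisense gene Prr29, and 10.3% of those of Icam1 overlap Gm47079.

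Vcam1 (ENSMUSG00000027962, chromosome 3, 115903598 to 115923355) had the widest spread among the genes read in every mouse, with a coefficient of variation of 47.5%. OSM mice 1, 2, 5, 6 and 9 had 4418, 2351, 1600, 2137 and 673.7 normalized counts. PBS mice 3, 4, 7, 8, 10 and 11 had 2689, 2535, 2578, 2782, 957.2 and 1315. The groups overlapped, with the highest and the lowest value both under OSM. For Vcam1 the log2 fold change was -0.24 ± 0.24 (SE, edgeR, adjusted p = 1, 95% interval -0.76 to 0.28). Within litters it was 0.30, -0.53 and -0.73 in litters 1, 2 and 3, and without the litter term the sign turned, to 0.06 (edgeR, adjusted p = 0.9998). Leaving out OSM mouse 1 gave -0.48, and leaving out OSM mouse 9 gave -0.08.

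Among the junctional and luminal proteins, Pecam1 (ENSMUSG00000020717, chromosome 11, 106543689 to 106641454) had 54551, 61971, 38900, 38834 and 42710 normalized counts in OSM mice 1, 2, 5, 6 and 9. PBS-treated mice had between 31219 and 55062, with a median of 42281. These ranges overlapped. The log2 fold change was 0.10 ± 0.08 (SE, edgeR, adjusted p = 1), and its 95% interval of -0.07 to 0.27 was the narrowest among the 8 genes. The estimate was 0.04 without PBS mouse 7 and 0.16 without PBS mouse 8. Podxl (ENSMUSG00000025608, chromosome 6, 31496418 to 31540924) had 18799, 23409, 15528, 11841 and 11870 normalized counts with OSM, in the same order of mice, and between 9602 and 20048 with PBS, with a median of 14633. Its log2 fold change of 0.10 ± 0.14 (SE, edgeR, adjusted p = 1) was 0.0067 without PBS mouse 7 and 0.22 without OSM mouse 9. Cd99l2 (ENSMUSG00000035776, chromosome X, 70452401 to 70536461), which supports late steps of passage through the wall, had 1757, 1947, 1203, 2145 and 1751 normalized counts with OSM and between 1126 and 2514 with PBS, with a median of 1323. Of the OSM-treated mice, 4 of 5 lay above every PBS-treated mouse except mouse 10, which had the highest value of all. The log2 fold change was 0.33 ± 0.23 (SE, edgeR, adjusted p = 1, 95% interval -0.17 to 0.83), and 0.18 without OSM mouse 6. Among Cd99l2 exon bases, 16.8% overlap the antisense genes Gm16189 and Mtmr1.

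Between litters, Vcam1 was lowest in litter 3, and Pecam1 and Podxl were highest in litter 1. In the same edgeR fit, Icam1, Icam2, Vcam1, Pecam1 and Podxl differed among the 3 litters at an unadjusted p under 0.05, 5 of 8 members against 10.3% of tested genes, and with each mouse left out in turn the count was 4 or 5, against 7.74% to 11% of genes. Without litter 1 it was 2, against 4.87% of genes, without litter 2 it was 4, against 11.3%, and without litter 3 it was 3, against 11.9%. After adjustment over all genes 0 of 8 were called, against 0.0176% of tested genes. At an unadjusted p under 0.05, 3 of 8 endothelial markers also differed among litters (edgeR). The shares over all tested genes were not matched for level. The call depended on the tool. DESeq2's likelihood ratio test called 4 members, Icam1, Vcam1, Pecam1 and Podxl, against 7.11% of the genes it adjusted, and the same 4 when run on the filtered genes, against 8.24%. Without the filter on low counts, edgeR called Vcam1, Pecam1 and Podxl, against 2.16% of genes, and without PBS mouse 8 it called Pecam1 (edgeR, adjusted p = 0.0393), against 0.263% of genes.

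Vcam1 had 2998 ± 957 normalized counts in litter 1 (SD, n = 4), 2274 ± 524 in litter 2 (SD, n = 4) and 982 ± 322 in litter 3 (SD, n = 3). All 3 mice of litter 3 lay below every other mouse, and the log2 difference to litter 1 was -1.69 ± 0.31 (SE, edgeR, adjusted p over the litters = 0.109; DESeq2, adjusted p = 0.000179). The summed level of mural markers had medians of 17699, 22089 and 30708 normalized counts in litters 1, 2 and 3. For Müller glia markers the medians were 9932, 9759 and 7091, a sum made up mostly of Glul, which had a mean of 8093 normalized counts. The part of either sum in this difference was not tested.

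Pecam1 had 55558 ± 4708 normalized counts in litter 1 (SD, n = 4), 37458 ± 4266 in litter 2 (SD, n = 4) and 42347 ± 1549 in litter 3 (SD, n = 3). Podxl had 19709 ± 2852 in litter 1 (SD, n = 4), 12653 ± 2530 in litter 2 (SD, n = 4) and 13693 ± 1881 in litter 3 (SD, n = 3). For both genes every mouse of litter 1 lay above every mouse of the other litters, and 1 litter stood apart in this way for 3 of 8 members against 5.38% of tested genes. The log2 difference between litters 2 and 1 was -0.57 ± 0.09 for Pecam1 (SE, edgeR, adjusted p over the litters = 0.0783; DESeq2, adjusted p = 3.737e-06). It was -0.64 ± 0.16 for Podxl (SE, edgeR, adjusted p over the litters = 0.207; DESeq2, adjusted p = 0.0133). The summed level of endothelial markers had medians of 425959, 375669 and 381034 normalized counts in litters 1, 2 and 3, and its part was not tested.

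Icam1 was lower in litter 3 than in litter 1 by a log2 difference of -0.58 ± 0.16 (SE, edgeR, adjusted p over the litters = 0.292; DESeq2, adjusted p = 0.0393). Icam2 went another way, higher in litter 2 than in litter 1 by 0.31 ± 0.12 (SE, edgeR, adjusted p over the litters = 0.425). Sele, Selp and Cd99l2 had unadjusted litter p-values of 0.957, 0.209 and 0.341 in edgeR. The OSM effect itself was tested for a difference among litters with an interaction term, and 0 of 8 members were called by edgeR, against 0% of tested genes, and 0 of 8 at an unadjusted p under 0.05, against 6.42% of tested genes.

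How the members varied with one another was examined over the 11 mice after the mean of each litter had been removed. Of 28 pairs, 0 passed an adjusted p under 0.05 and 1 had an unadjusted p under that value. This pair was Selp and Cd99l2, with r = 0.859 (exact permutation within litters, p = 0.0139, adjusted p = 0.389) and rho = 0.795 (exact permutation, p = 0.0278, adjusted p = 0.758). Without the 2 mice farthest from the median of Selp r was 0.744, and within litters 1, 2 and 3 it was 0.521, 0.963 and 0.995. Since 6 mice had 0 Selp reads, the relation rests on few mice with reads. The neighboring genes Sele and Selp had r = 0.266 (exact permutation, p = 0.51, adjusted p = 0.928). Pecam1 and Podxl, which shared their order of litters, had r = 0.604 once litter was removed (exact permutation, p = 0.129, adjusted p = 0.821).

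Among 10911 tested genes with a mean of at least 100 normalized counts, the litter-centered pattern over 11 mice most like that of Icam1 was found for Arhgap35, Grb10 and Gak (r = 0.968, 0.966 and 0.958). For Icam2 the most alike were Ecscr, Ccl19-ps6 and Ankrd37 (r = 0.945, 0.925 and 0.92), and for Vcam1 Galns, Baz1b and Tmem59 (r = 0.932, 0.898 and 0.895). Pecam1 was followed by Tollip, Zfp568 and Kazn (r = 0.943, 0.938 and 0.936) and Podxl by Adgra3, Cxcl12 and Cstf2t (r = 0.949, 0.949 and 0.938). For Cd99l2 these were Rora, Chst15 and Carm1 (r = 0.921, 0.916 and 0.909). For the sparse Sele they were Abcf3, Clk1 and Ocrl (r = 0.958, 0.954 and 0.945) and for Selp Particl, Gabarapl2 and Rpl7a (r = 0.897, 0.893 and 0.884). Each is the top of a search over all these genes in the same 11 libraries, and is given as a description.

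Genes that work with the adhesion molecules were read from 5 lists, and 0 genes of any list were called for OSM by edgeR. Over all tested genes 0% were called and 4.96% had an unadjusted p under 0.05, the shares to set beside the counts of each list. Of 9 tested capture and rolling partners, 1 was higher and 1 lower at an unadjusted p under 0.05: Fut4, a fucosyltransferase of selectin ligands, had a log2 fold change of 1.04 ± 0.39 (SE, edgeR, adjusted p = 0.955), and Cd63, a tetraspanin that helps P-selectin act, -1.02 ± 0.38 (SE, edgeR, adjusted p = 0.955). Cd34, a sialomucin, had the highest level of this list at 184 ± 14.7 RPKM (SD, n = 11). Chst4 and Fut7, which build L-selectin and E-selectin ligands, had 0 reads in every mouse.

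Among 13 docking, anchoring and chemokine genes, 1 had an unadjusted p under 0.05, against 4.96% of all tested genes. This was Cx3cl1, a membrane-bound chemokine, at -0.56 ± 0.17 (log2, SE, edgeR, adjusted p = 0.955). Moesin (Msn), which ties ICAM-1 and VCAM-1 to actin, led the list at 281 ± 32.1 RPKM (SD, n = 11). Of 9 tested junctional partners, 1 was higher and 1 lower at an unadjusted p under 0.05. Jam2, a junctional adhesion molecule, had a log2 fold change of 0.36 ± 0.13 and Plvap, which forms the diaphragms of endothelial pores, one of -0.85 ± 0.31 (SE, edgeR, both adjusted p = 0.955). Esam had the highest level of the junctional list at 729 ± 66.2 RPKM (SD, n = 11).

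Counter-receptors are carried by leukocytes, and some of this list were also well read in every mouse of these sorted cells. Of 9 tested counter-receptors, 1 had an unadjusted p under 0.05, against 4.96% of all tested genes. It was Itgb2, the beta2 integrin chain, at 6.38 ± 2.87 on reads from only 6 mice (log2, SE, edgeR, adjusted p = 0.955). Its plain means were 145.5 ± 114 normalized counts with OSM (SD, n = 5) and 80.6 ± 146 with PBS (SD, n = 6). Within litters 1, 2 and 3 the Itgb2 differences were -0.555, 3.195 and 6.656 in log2 CPM. Itgb1, the beta1 integrin chain, which endothelium also makes, had 316 ± 52.8 RPKM (SD, n = 11). Of 20 genes of NF-kB and cytokine control, 1 had an unadjusted p under 0.05. It was Ikbkb, a kinase that frees NF-kB, at -0.40 ± 0.15 (log2, SE, edgeR, adjusted p = 0.955), and Nfkbia, an inhibitor and target of NF-kB, had the highest level at 223 ± 38.0 RPKM (SD, n = 11). The median log2 fold changes of the 5 lists lay between -0.06 and 0.04, near the -0.01 of all tested genes.

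**Figure D4:**
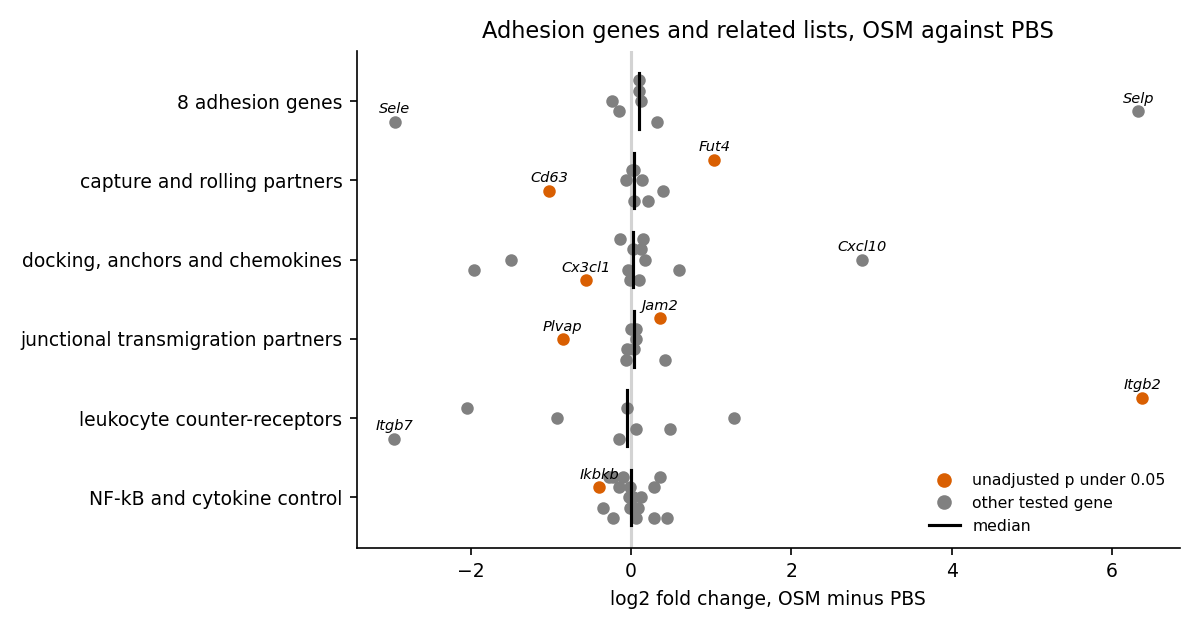
Log2 fold change of each tested gene, OSM minus PBS, for the 8 adhesion genes and 5 related lists, with genes at an unadjusted p under 0.05 in orange and the median of each list as a line. The medians lie between -0.06 and 0.1, and the values farthest from 0 belong to genes with few reads such as Selp and Itgb2.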

How the data were processed

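RNA of CD31+/CD45- retinal endothelial cells was sequenced in 11 mice, 5 OSM-treated and 6 PBS-treated. The authors used oligo(dT)-primed and PCR-amplified cDNA without molecular identifiers, sequenced single reads, aligned them with STAR to GRCm39 and ran featureCounts on GENCODE genes at standard settings, without strand and leaving out reads that fit several genes. The values deposited by the authors are raw counts per gene. From these, edgeR 4.0.16 in R 4.3.3 was run with TMM, filterByExpr (count minimum 10, 17050 genes), a robust quasi-likelihood fit of litter and treatment and Benjamini-Hochberg adjustment at 0.05. DESeq2 1.42.0 was an alternative. Of 55359 genes, 54749 are in the annotation used (vM39), and Cd99 was not matched. The authors counted on their own GENCODE download, in which gene lengths and overlaps may differ from those given here. Log2 CPM used a prior count of 2, and 0.01 was added to RPKM before log2 differences between genes. The edgeR tests were tried on counts simulated from the same fit, which does not check DESeq2 or the permutation tests. The promoter letters come from GRCm39, and protein sequences were not used here. The genes named are the 8 members, list genes with an unadjusted p under 0.05 or the highest RPKM of their list, and 3 most alike genes per member. Members and lists were chosen with earlier results of these data known. Alternatives were other scaling, filter, robustness, tool and litter term, each mouse or litter left out, another gene length and other centering. Depth was 26697990 to 56033479 counts per mouse, and errors are those between mice, since amplified reads are not independent molecules. Each mouse is a separate sample.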

Additional observations from a re-analysis of the deposited data

Results flagged for a closer look

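In all, 4 values stood far from the rest of their treatment group, by the gap to the nearest mouse divided by the range. They were found among 16 groups of 5 or 6 mice examined. For normally distributed values chance gives about 1 in 20 groups such a value. Selp had 0 reads in 6 mice, so this rate does not hold for its groups. Icam2 was lowest in OSM mouse 2 with 17904 normalized counts, against 21638 in the next mouse (gap over range 0.753). Selp was highest in OSM mouse 6 with 461.7 normalized counts, against 133.4 in the next (0.711). Selp was also highest in PBS mouse 10 with 376.2, against 2.588 in the next (0.993), and the same mouse had the highest Cd99l2 value among PBS-treated mice, 2514 against 1449 (0.767).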

How the results depend on the processing

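No member was called for OSM in any alternative run, and of 159 log2 fold changes of members in alternatives 158 kept their direction. The exception was Vcam1 without the litter term (0.0612), a setting that also took Selp from 6.33 to 0.99. The lowest adjusted p of any member was 0.175, for Selp in edgeR without a filter. Over all genes, calls for OSM numbered 0 in edgeR but 65 without a filter on low counts, 168 with DESeq2 and 62 with DESeq2 on the filtered genes, and the cause was not tested. Members called among litters numbered 3 without the filter, 4 with DESeq2, 4 with DESeq2 on the filtered genes and 0 to 1 with a mouse left out. With the longest transcript as length, mean RPKM was 76.6 for Icam1, 15.7 for Vcam1, 273 for Pecam1 and 8.18 for Cd99l2, by construction. Of the 28 pairs of members, 1 passed once treatment means were also removed (Icam1 and Cd99l2, permutation, adjusted p = 0.0324) and 2 without centering (Pecam1 and Podxl, 0.0109, and Selp and Cd99l2, 0.0147). No paired analysis was possible because the groups share no mouse numbers. Sele and Selp had 0 reads in 3 and 6 mice, and the deepest library, OSM mouse 9, had 2 Sele reads.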

Other observations

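The related lists also held genes that differed among litters at an unadjusted p under 0.05 in edgeR, a share of 10.3% over all tested genes. There were 3 of 9 capture and rolling partners, 2 of 13 docking, anchoring and chemokine genes, 1 of 9 junctional partners, 2 of 9 counter-receptors and 5 of 20 genes of NF-kB and cytokine control, and 0 were called after adjustment over all genes. Chosen after their values were seen, the lowest litter values belonged to Vwf, which encodes von Willebrand factor (edgeR, adjusted p = 0.0861), Klf2, a transcription factor induced by blood flow (edgeR, adjusted p = 0.109), and Nfkbia (edgeR, adjusted p = 0.159).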
